A study of Mus musculus with 2 samples.

Results

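Pyruvate, the end product of glycolysis, lies at a branch between lactate and the mitochondrion, and 10 genes of this branch were followed through single cells of the mouse Isl1-Cre lineage at E13.5. They were taken by symbol from the 32285 genes of the count tables: the lactate dehydrogenase subunits Ldha and Ldhb, the pyruvate dehydrogenase kinases Pdk1, Pdk2, Pdk3 and Pdk4, the pyruvate dehydrogenase E1 subunits Pdha1 and Pdhb, and the mitochondrial pyruvate carrier subunits Mpc1 and Mpc2. The control library came from Isl1-Cre;R26R-eYFP embryos, and the mutant library from Isl1-Cre;R26R-eYFP;Pik3caH1047R embryos, which also carry an activating allele of the catalytic subunit of PI3-kinase. Each library pooled 3 embryos of a mixed C57BL/6J and Crl:CD1(ICR) background. The recombinase is expressed from Isl1, a gene active in cardiopharyngeal mesoderm and in several other embryonic lineages, so the sorted eYFP+ cells were of many types. The upper body above the liver was dissected, although the tissue label reads pharyngeal arch. With 1 library per genotype, no test between genotypes was possible, and differences among embryos within a pool cannot be told apart from the genotype.

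In the cytosol, lactate dehydrogenase interconverts pyruvate and lactate as a tetramer of A subunits, encoded by Ldha, and B subunits, encoded by Ldhb, the form best known from heart. Pyruvate that is not made into lactate enters mitochondria through the carrier formed by MPC1 and MPC2, and the pyruvate dehydrogenase complex then turns it into acetyl-CoA for the TCA cycle. The kinases PDK1 to PDK4 phosphorylate the E1 component of that complex and thereby switch it off, and both Ldha and Pdk1 are well-known targets of the hypoxia-inducible factors.

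The members lie on 8 chromosomes of GRCm38, all as protein-coding genes. Ldha covers chr7:46841475-46855627, Ldhb chr6:142490249-142507957, Pdk1 chr2:71873224-71903858, Pdk2 chr11:95026258-95041354, Pdk3 chrX:93764607-93832201 and Pdk4 chr6:5483351-5496309. Pdha1 covers chrX:160122209-160138413, Pdhb chr14:8165996-8173025, Mpc1 chr17:8282904-8297661 and Mpc2 chr1:165460637-165481214. Pdk3 and Pdha1 are thus X-linked. Pdk2, Pdha1 and Mpc1 overlap an annotated gene on the opposite strand (Gm11513, Map3k15 and 4930506C21Rik), and their UMIs were read as those of the sense gene only. Mpc2 overlaps Gm37860 on the same strand, which is not among the genes counted, so reads from it cannot be told apart in the counts. A search of the annotated transcripts found 12 other transcripts of at least 95% identity over at least 100 bases, pseudogenes of Ldha above all. The longest match covered 1079 bases of Pdhb, and 0 of the 12 is a row of the count tables, so how reads from such copies were assigned cannot be read from the counts.

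Upstream sequence is shown for Ldha and Pdk1, the members that were higher in the mutant library in every class compared, and for their relatives Ldhb and Pdk2, which were not. All 10 members were matched to RefSeq start sites, which gave 14 windows of 250 bases before a start. Capitals mark the core letters of the hypoxia response element, ACGTG or GCGTG on either strand. CACGTG, the E-box that MYC and USF proteins also bind, holds ACGTG on both strands, and overlapping matches were counted as 1 site.
Ldha promoter, chr7:46845554-46845803 (+ strand): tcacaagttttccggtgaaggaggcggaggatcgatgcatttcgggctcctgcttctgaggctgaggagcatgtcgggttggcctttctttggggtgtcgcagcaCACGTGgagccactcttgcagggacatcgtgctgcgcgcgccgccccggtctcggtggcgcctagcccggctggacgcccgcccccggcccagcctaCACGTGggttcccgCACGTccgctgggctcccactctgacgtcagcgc
Ldhb promoter, chr6:142507958-142508207 (- strand): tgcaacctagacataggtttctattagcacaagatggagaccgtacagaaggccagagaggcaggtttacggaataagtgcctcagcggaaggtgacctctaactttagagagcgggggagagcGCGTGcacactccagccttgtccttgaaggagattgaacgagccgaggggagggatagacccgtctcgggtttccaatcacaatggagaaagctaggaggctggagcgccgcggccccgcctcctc
Pdk1 promoter, chr2:71872974-71873223 (+ strand): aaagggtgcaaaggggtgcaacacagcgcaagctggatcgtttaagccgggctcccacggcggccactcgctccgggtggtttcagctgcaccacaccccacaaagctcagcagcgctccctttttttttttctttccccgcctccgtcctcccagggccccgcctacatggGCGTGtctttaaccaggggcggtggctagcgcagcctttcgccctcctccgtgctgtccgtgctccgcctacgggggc
Pdk2 promoter, chr11:95041372-95041621 (- strand): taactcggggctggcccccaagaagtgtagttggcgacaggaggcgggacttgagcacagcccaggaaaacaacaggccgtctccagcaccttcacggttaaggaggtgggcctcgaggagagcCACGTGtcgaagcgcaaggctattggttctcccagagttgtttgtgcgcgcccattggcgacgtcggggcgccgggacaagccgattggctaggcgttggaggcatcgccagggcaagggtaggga
Of these windows, the one of Ldha holds 3 sites, of which a pair are the E-box CACGTG. The printed windows of Ldhb, Pdk1 and Pdk2 hold 1 site each, and that of Pdk2 is CACGTG. Ldha, Pdk1 and Pdk2 each have another window, not printed, which holds 1, 0 and 0 sites. For these genes the window printed is thus the one with more sites. Among all 32851 RefSeq windows of the same length, 38.6% hold at least 1 site, 4.65% hold 3 or more and 6.02% hold CACGTG. At least 1 site was present for 10 of 10 members and in 11 of 14 windows, and Pdk3 with 4 sites and Pdha1 with 3 had as many as Ldha or more. Members that were higher and members that were not both held sites, and a match is a description of sequence, not of binding.

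After filtering, 2783 of 4505 control barcodes and 3489 of 5357 mutant barcodes were kept, with 63153191 and 69717583 UMIs, or unique molecular identifiers, each marking 1 captured transcript. The median cell held 20412 UMIs in the control and 16839 in the mutant library. The libraries shared 28 barcodes as deposited, of which 12 passed the filter in each. By Xist against 4 Y-linked genes, 95.5% of control cells and 33.6% of mutant cells were female-like, and 53.3% of mutant cells were male-like against 0.0359% of control cells, so sex and genotype were partly confounded. Cells fell into 15 clusters, which were named X-like from markers. A class was compared where each library had at least 50 of its cells, which left 7 classes: EC-like (endothelial, 146 control and 700 mutant cells), branchial muscle-like (890 and 844), mesenchyme-like (893 and 637), epithelium-like (212 and 304), mesothelium-like (70 and 67), neuron-like (193 and 464) and cardiomyocyte-like (54 and 184). In EC-like cells, 16 of 16 endothelial markers were raised over the other clusters. A hepatoblast-like cluster held 46 mutant cells and 0 control cells, and a cluster with macrophage and globin genes was left unnamed.

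Values are UMIs per 1000000 UMIs of a class in a library (CPM), and ratios are log2 of mutant over control. Intervals in parentheses are 95% counting intervals, which cover the sampling of transcripts and not the variation between cells or embryos. A member is called higher or lower where the interval of its ratio lies on one side of 0. Ratios as small as -0.09, that of Pdha1 in branchial muscle-like cells, are called by this rule. The share of all genes that it would call was not counted, so these calls describe single members only. Because a UMI marks a transcript at its 5′ end whatever its length, sums and shares over the genes of a family were formed from UMIs, and single genes are compared between classes and libraries only.

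**Figure D1:**
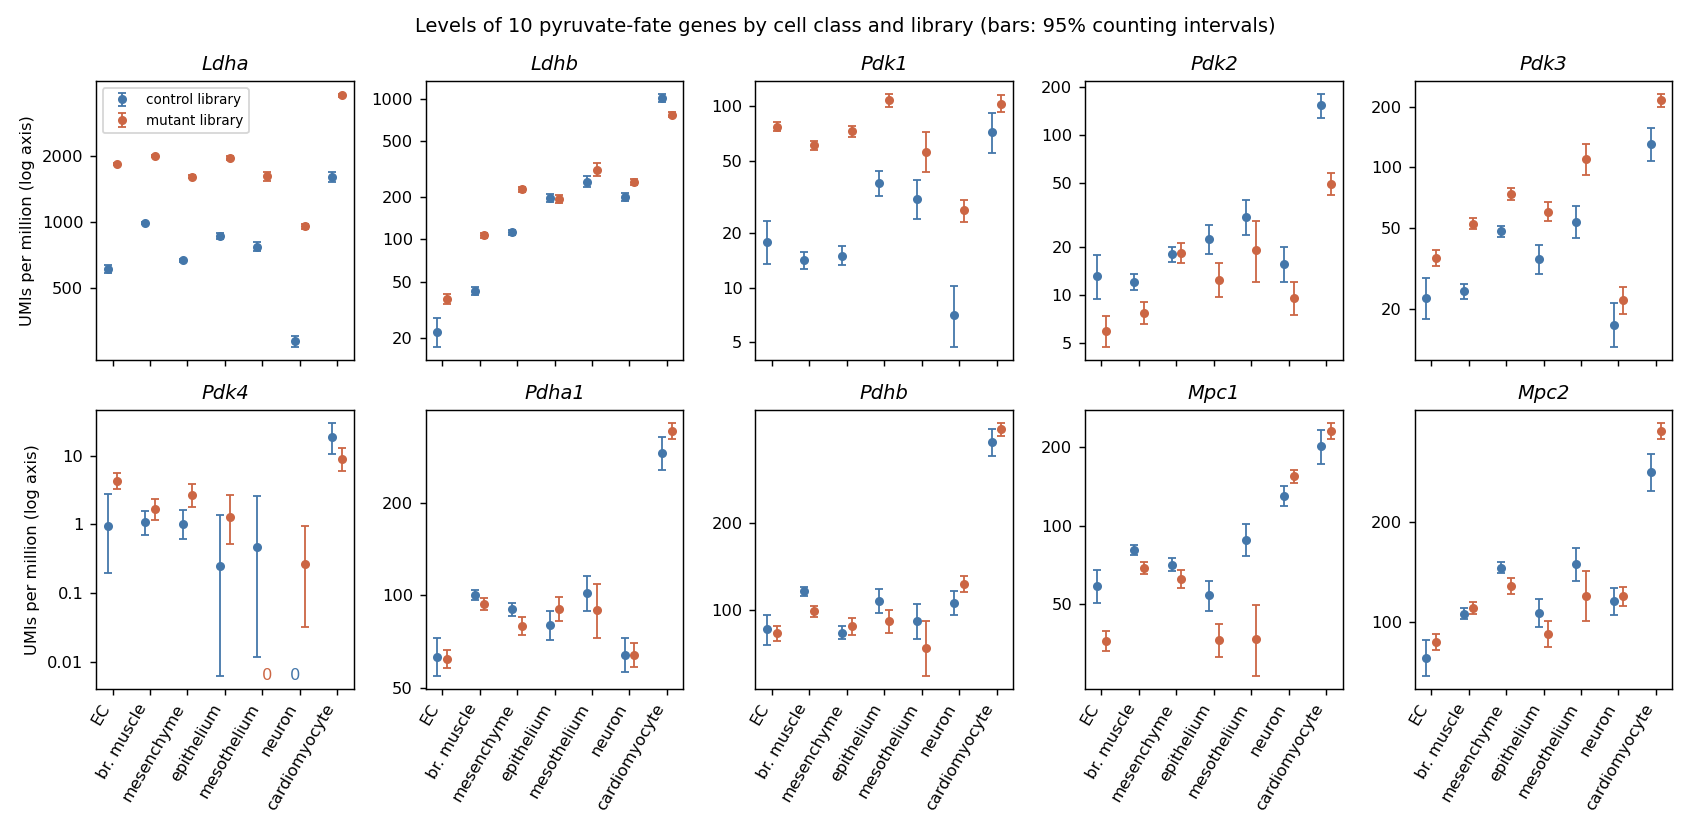
Level of each of the 10 genes in 7 cell classes, in CPM on a log axis, for the control library (blue) and the mutant library (orange), with 95% counting intervals; a 0 marks a library without a UMI. Ldha and Pdk1 lie higher in the mutant library in every class, while Pdha1, Pdhb and Mpc2 lie close together in both libraries.

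Ldha was higher in the mutant library in all 7 classes, by 1.02 to 1.74 on the log2 scale, and it was the only member past 1.5-fold in every class. In neuron-like cells, where it was lowest, Ldha stood at 285 CPM (269 to 303) in the control library and 952 CPM (931 to 974) in the mutant library, the largest ratio of the 7 at 1.74 (1.65 to 1.83). In cardiomyocyte-like cells, where it was highest, it stood at 1599 CPM (1516 to 1686) and 3760 CPM (3694 to 3828), a ratio of 1.23 (1.15 to 1.31). The intervals of both libraries were far apart in each class.

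The order of the classes by Ldha changed between the libraries. In the control library it ran from cardiomyocyte-like through branchial muscle-like (987 CPM), epithelium-like (859), mesothelium-like (771), mesenchyme-like (668) and EC-like (609) to neuron-like cells, with no interval overlapping that of its neighbour. In the mutant library EC-like cells stood at 1838 CPM (1815 to 1860), above mesothelium-like cells at 1611 CPM (1538 to 1686) and mesenchyme-like cells at 1604 CPM (1580 to 1628), whose intervals overlapped. Branchial muscle-like cells at 1997 CPM (1978 to 2017) and epithelium-like cells at 1955 CPM (1918 to 1992) also overlapped. The highest class exceeded the lowest 5.6-fold in the control and 3.95-fold in the mutant library.

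In EC-like and cardiomyocyte-like cells, the difference in Ldha was spread over cells and was not that of a few. With EC-like cells thinned to 5000 UMIs, the median cell held 2 Ldha UMIs (quartiles 1 and 3.5) among 143 control cells and 7 (quartiles 4 and 12) among 668 mutant cells, with 3 and 32 shallower cells left out. The unthinned medians were 4.79 and 14.7 UMIs per 10000. In cardiomyocyte-like cells the thinned medians were 5.5 (quartiles 4 and 10.5) and 19.5 (quartiles 12 and 25), so that the lower quartile of the mutant cells lay above the upper quartile of the control cells. In mesothelium-like cells the medians were 3 (quartiles 1.25 and 5) and 4 (quartiles 2 and 10), with quartile ranges that overlapped. Neuron-like cells had medians of 1 (quartiles 0 and 2) and 2 (quartiles 1 and 6), with quartile ranges that also overlapped. In both classes the upper quartile differed more than the median. Quartile ranges overlapped as well in mesenchyme-like cells (1 to 4 and 3 to 11) and in branchial muscle-like cells (2 to 6 and 5 to 13).

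Within classes made of several clusters, the size of the Ldha difference varied more than its direction. Of the mesenchyme-like clusters, the larger one went from 486 to 1632 CPM, a ratio of 1.75 (1.70 to 1.80), and the other from 868 to 1529 CPM, a ratio of 0.82 (0.76 to 0.87). The second cluster held 366 control cells and 133 mutant cells, so its share of the class differed between the libraries. EC-like cells, at 609 and 1838 CPM, stood above the larger mesenchyme-like cluster in both libraries. Their change of order against mesenchyme-like cells thus held for the class as a whole and not for that cluster. In the larger neuron-like clusters the ratios were 1.55 (1.37 to 1.73) and 2.18 (2.06 to 2.30), and the third, with 27 control and 12 mutant cells, was left out as under 50 cells per library. The unnamed cluster had a smaller ratio than any of the 7 classes, 0.72 (0.66 to 0.77), with 1643 CPM in the mutant library. At resolution 0.8, an erythroid-like cluster held 82 control and 135 mutant cells, and a macrophage-like cluster 92 and 41. The make-up of the unnamed cluster may thus have differed between the libraries, and its part in this ratio was not tested.

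Ldhb did not follow Ldha. It was higher in the mutant library in 5 of the 7 classes, lower in 1, and its interval held 0 in 1. In branchial muscle-like cells it went from 42.8 CPM (40.2 to 45.5) to 106.5 CPM (102 to 111), a ratio of 1.32 (1.21 to 1.43), the largest for this gene. In mesenchyme-like cells it went from 112 CPM (108 to 117) to 227 CPM (218 to 236), a ratio of 1.02 (0.93 to 1.10). The larger cluster of that class gave 0.93 (0.83 to 1.03) and the other 0.84 (0.68 to 1.01), both below the class value. EC-like cells had the lowest level in both libraries, 22.0 CPM (17.1 to 27.8) from 70 UMIs and 37.7 CPM (34.5 to 41.1), a ratio of 0.78 (0.42 to 1.16). Cardiomyocyte-like cells, where Ldhb was highest, went the other way, from 1014 CPM (948 to 1083) to 767 CPM (737 to 797), a ratio of -0.40 (-0.51 to -0.29). Few control cells of that class had a sex-like call, with 11 of 54 female-like and 0 male-like. Those 11 cells held 802 CPM (692 to 925), less than the class as a whole. Against them, the 83 male-like mutant cells, at 839 CPM (793 to 887), gave 0.06 (-0.16 to 0.29). The 12 female-like mutant cells gave -0.48 (-0.81 to -0.16). The male-like level still lay below the 1014 CPM of all control cells, and over the processing alternatives the ratio ran from -0.49 to -0.26. Epithelium-like cells held 197 and 193 CPM, with a ratio of -0.03 (-0.16 to 0.10). The range of Ldhb over classes, 46.1-fold in the control library, was far wider than that of Ldha.

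The share of Ldha among the UMIs of both subunit genes differed between the libraries mainly where Ldhb was abundant. In cardiomyocyte-like cells it was 61.2% (59.2 to 63.2, Clopper-Pearson) in the control and 83.1% (82.4 to 83.7) in the mutant library. In neuron-like cells it was 58.7% (56.5 to 61.0) and 78.8% (78.0 to 79.7). Epithelium-like cells went from 81.3% to 91.0%, and mesothelium-like cells reached 83.8% in the mutant library, 8.78 points above the control. In EC-like cells, where nearly all LDH UMIs were of Ldha already, the share was 96.5% (95.6 to 97.3) and 98.0% (97.8 to 98.2). Branchial muscle-like cells were the only class of the 7 with a lower share in the mutant library, 95.8% (95.6 to 96.1) against 94.9% (94.7 to 95.1), with a larger ratio for Ldhb than for Ldha.

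**Figure D2:**
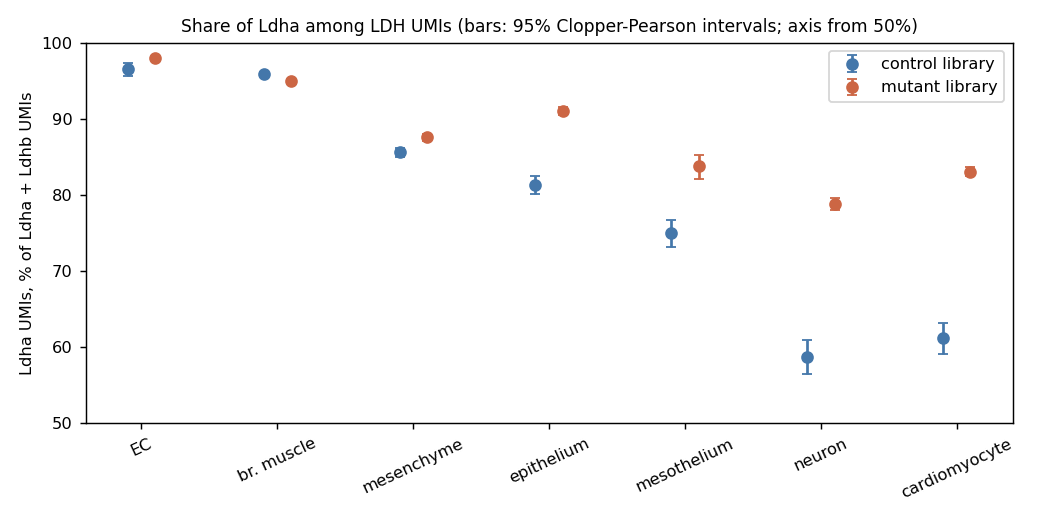
Share of Ldha among Ldha and Ldhb UMIs in percent for each class, control library (blue) and mutant library (orange), with 95% Clopper-Pearson intervals; the axis starts at 50%. The share is 20.1 percentage points higher in neuron-like and 21.9 points higher in cardiomyocyte-like cells of the mutant library, while branchial muscle-like cells have a difference of -0.907 points.

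Pdk1, a kinase gene induced by hypoxia-inducible factors, exceeded its control level in all 7 classes as Ldha did, and passed 1.5-fold in 6. The ratio was 2.27 (2.07 to 2.48) in mesenchyme-like cells, which went from an interval of 13.3 to 16.9 CPM to 72.5 CPM (67.5 to 77.7). Within that class it was 2.21 (1.97 to 2.45) in the larger cluster and 1.64 (1.21 to 2.06) in the other. Both lay below the class value, and the share of the other cluster differed between the libraries. Branchial muscle-like cells had a ratio of 2.11 (1.93 to 2.29), with 14.1 and 61.1 CPM. EC-like cells went from 17.9 CPM (13.6 to 23.2) to 77.0 CPM (72.5 to 81.8), on 57 control UMIs and 1075 mutant UMIs. The smallest ratios were in mesothelium-like cells, 0.86 (0.35 to 1.38), and in cardiomyocyte-like cells, 0.53 (0.13 to 0.94). Cardiomyocyte-like cells had the highest Pdk1 in the control library, 71.6 CPM (54.9 to 91.8), and went to 103 CPM (92.3 to 115), which overlapped the 108 CPM (99.4 to 117) of epithelium-like cells, the highest in the mutant library. Neuron-like cells were lowest in both libraries, at 7.08 CPM (4.70 to 10.2) and 26.6 CPM (23.1 to 30.5). The highest class exceeded the lowest 10.1-fold in the control and 4.05-fold in the mutant library.

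Pdk2, a broadly expressed kinase gene, went the opposite way. It was lower in the mutant library in 5 of the 7 classes, and its interval held 0 in mesenchyme-like and mesothelium-like cells. In cardiomyocyte-like cells it stood at 154 CPM (129 to 182) in the control and 49.8 CPM (42.4 to 58.1) in the mutant library, a ratio of -1.62 (-1.96 to -1.28). In EC-like cells it stood at 13.2 CPM, from 42 UMIs, and 5.95 CPM (4.74 to 7.37), a ratio of -1.15 (-1.70 to -0.58). Mesenchyme-like cells held 18.0 and 18.5 CPM, a ratio of 0.04 (-0.22 to 0.30). Their larger cluster gave -0.19 (-0.48 to 0.10) and the other -0.07 (-0.72 to 0.54), both below the class value with intervals that held 0. Cardiomyocyte-like cells stood above every other class in both libraries, and most other neighbours in the order overlapped.

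Pdk3, which lies on the X chromosome, was higher in 6 of the 7 classes, by 0.61 to 1.11, and in 4 of those 6 when female-like cells alone were compared. Branchial muscle-like cells had the largest ratio, 1.11 (0.96 to 1.26), from 24.3 CPM (22.4 to 26.4) to 52.6 CPM (49.5 to 55.9). In mesothelium-like cells it went from 53.8 CPM (44.5 to 64.5) to 110 CPM (91.3 to 131), a ratio of 1.03 (0.65 to 1.40). In neuron-like cells the ratio was 0.40 (-0.02 to 0.83), with 16.7 and 22.0 CPM. The larger clusters of that class gave -0.19 (-0.78 to 0.42) and 0.75 (0.10 to 1.44). Cardiomyocyte-like cells were highest in both libraries, at 130.5 CPM in the control and 215 CPM in the mutant library.

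Pdk4, the starvation-induced kinase gene, was close to absent outside cardiomyocyte-like cells, and only 4 classes reached the 20 UMIs asked for a ratio. Cardiomyocyte-like cells held 18.5 CPM (10.6 to 30.0) in the control and 8.92 CPM (5.97 to 12.8) in the mutant library, on 16 and 29 UMIs, a ratio of -1.05 (-1.98 to -0.07). Mesenchyme-like cells, on 19 and 29 UMIs, gave 1.40 (0.51 to 2.31). Branchial muscle-like cells, on 25 and 33 UMIs, gave 0.66 (-0.13 to 1.47). EC-like cells held 3 UMIs in the control and 60 in the mutant library, a ratio of 2.19 (0.57 to 4.51). Of those 60 UMIs, 57 lay in 26 of the 381 male-like EC-like cells, with up to 8 in 1 cell. The 233 female-like mutant cells held 3 UMIs in 3 cells, and the 131 female-like control cells also held 3 in 3 cells. The EC-like difference in Pdk4 was thus that of few cells. Against female-like control cells the female-like mutant cells gave -0.70 (-3.60 to 2.20), on fewer UMIs than the 20 asked for a ratio.

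Summed over the 4 kinase genes, the level was higher in the mutant library in 6 of the 7 classes with an interval that held 0 in cardiomyocyte-like cells. EC-like cells went from 54.6 to 123 CPM, a ratio of 1.17 (0.94 to 1.40), and branchial muscle-like cells from 51.6 to 123 CPM, a ratio of 1.25 (1.15 to 1.35). Neuron-like cells went from 39.4 to 58.5 CPM, a ratio of 0.57 (0.30 to 0.84). Cardiomyocyte-like cells held 374 and 377 CPM, a ratio of 0.01 (-0.17 to 0.19), yet with another make-up. Pdk2 made up 41.0% (35.6 to 46.6) of their kinase UMIs in the control and 13.2% (11.4 to 15.3) in the mutant library, and Pdk3 34.9% (29.7 to 40.3) and 57.1% (54.2 to 59.9).

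The make-up also differed in EC-like cells. Pdk1 made up 32.8% (25.8 to 40.3) of the kinase UMIs in the control and 62.7% (60.4 to 65.0) in the mutant library, while Pdk2 made up 24.1% (18.0 to 31.2) and 4.84% (3.88 to 5.97). In mesenchyme-like cells Pdk1 went from 18.2% (16.3 to 20.2) to 43.3% (41.0 to 45.6), and in neuron-like cells from 17.9% (12.3 to 24.9) to 45.6% (40.9 to 50.3). Mesothelium-like cells were the class in which the intervals of the Pdk1 share overlapped, 26.6% (21.2 to 32.5) and 30.3% (24.2 to 37.0). The Pdk2 share was lower in the mutant library in all 7 classes, with no overlap of intervals in any of them.

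**Figure D3:**
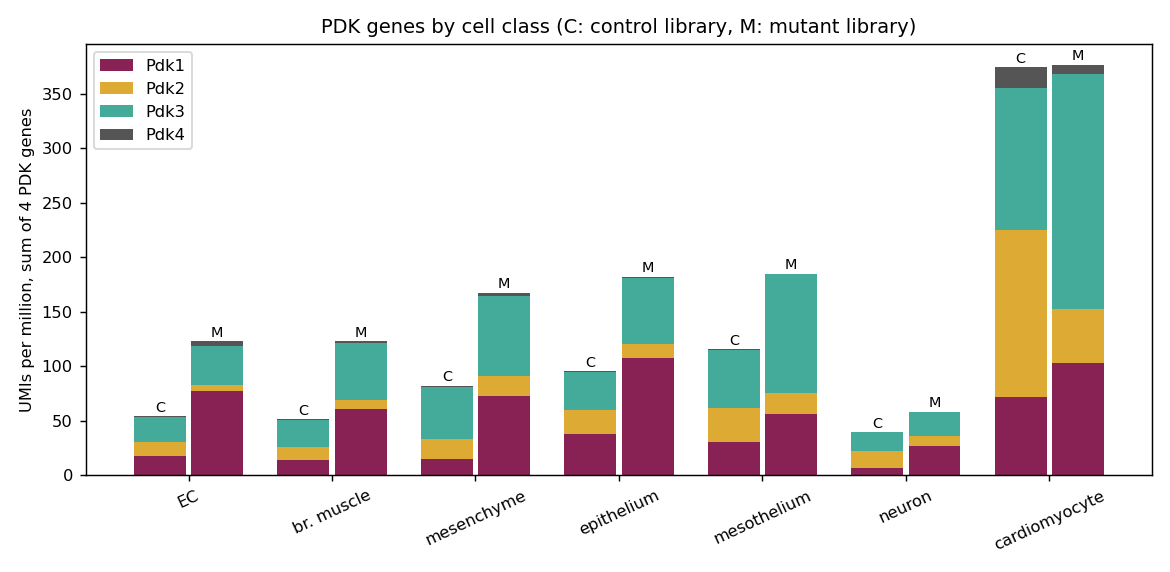
CPM of the 4 PDK genes stacked within each class, control library (C) beside mutant library (M). The stack is higher in the mutant library in 6 of 7 classes with a larger Pdk1 band, and in cardiomyocyte-like cells the stacks reach 374 and 377 CPM with less Pdk2 and more Pdk3.

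Genes of the E1 component, which these kinases phosphorylate, stayed within 1.5-fold. Pdha1 and Pdhb, the alpha and beta subunits of pyruvate dehydrogenase E1, passed that fold in 0 of the 7 classes. Among all genes measured, 23.5% to 37.5% were past it in a class, so most genes also stayed within it. By their intervals, Pdha1 and Pdhb were each higher in 1 class and lower in 2, and the interval held 0 in 4. In EC-like cells Pdha1 held 63.1 CPM (54.7 to 72.4) in the control and 62.0 CPM (57.9 to 66.3) in the mutant library, a ratio of -0.03 (-0.25 to 0.20). Pdhb held 85.4 CPM (75.5 to 96.1) and 82.9 CPM (78.1 to 87.8), a ratio of -0.04 (-0.24 to 0.15). Over all 7 classes the ratios ran from -0.18 to 0.24 for Pdha1 and from -0.31 to 0.22 for Pdhb. Cardiomyocyte-like cells stood well above the other classes for both genes, with Pdha1 at 290 CPM (255 to 328) and 343 CPM (323 to 364) and Pdhb at 381 CPM (341 to 424) and 423 CPM (401 to 446). The other 6 classes lay between 63.1 and 102 CPM for Pdha1 in the control library, and most neighbours in that order overlapped. The sum of both E1 genes in EC-like cells was 148 and 145 CPM, a ratio of -0.04 (-0.18 to 0.11), beside the ratio of 1.17 for the kinase sum.

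The carrier subunits differed from each other. Mpc1 was lower in the mutant library in 5 of the 7 classes and past 1.5-fold in 2, mesothelium-like cells at -1.26 (-1.78 to -0.77) and EC-like cells at -0.69 (-0.94 to -0.44). In EC-like cells it went from 58.7 CPM (50.6 to 67.7) to 36.3 CPM (33.2 to 39.6), and in mesothelium-like cells from 88.3 CPM (76.3 to 102) to 36.8 CPM (26.6 to 49.8), the latter on 42 mutant UMIs. Neuron-like cells were the exception, higher at 0.25 (0.10 to 0.41), from 130 to 155 CPM. Cardiomyocyte-like cells held 201 and 230 CPM, with an interval that held 0. Between female-like cells alone, Mpc1 was lower in EC-like cells, at -0.76 (-1.07 to -0.44), and in mesothelium-like cells, at -0.73 (-1.49 to -0.04). In the other 3 classes with a lower level the interval then held 0, as it did in neuron-like cells, at 0.10 (-0.07 to 0.28). Over the processing alternatives, the Mpc1 ratio ran from -1.23 to -0.58 in EC-like cells and from -1.51 to -0.52 in mesothelium-like cells. Each range thus ended within 1.5-fold, in mesothelium-like cells after thinning, on 17 control and 11 mutant UMIs. The median mesothelium-like cell held 28114 UMIs in the control and 14430 in the mutant library.

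Mpc2 stayed within 1.5-fold in all 7 classes, with mesothelium-like cells lowest at -0.31 and cardiomyocyte-like cells highest at 0.41. Most of all genes measured in each class also stayed within that fold. By its interval Mpc2 was higher in 1 class and lower in 3, and the interval held 0 in 3. In EC-like cells, where Mpc1 was lower, Mpc2 held 78.5 CPM (69.0 to 88.8) and 87.5 CPM (82.7 to 92.6), a ratio of 0.16 (-0.04 to 0.36). In cardiomyocyte-like cells it went from 281 CPM (246 to 318) to 373 CPM (353 to 395), a ratio of 0.41 (0.21 to 0.62). Both carrier genes, which act as 1 complex, thus had unlike ratios in EC-like cells, with intervals that did not overlap.

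**Figure D4:**
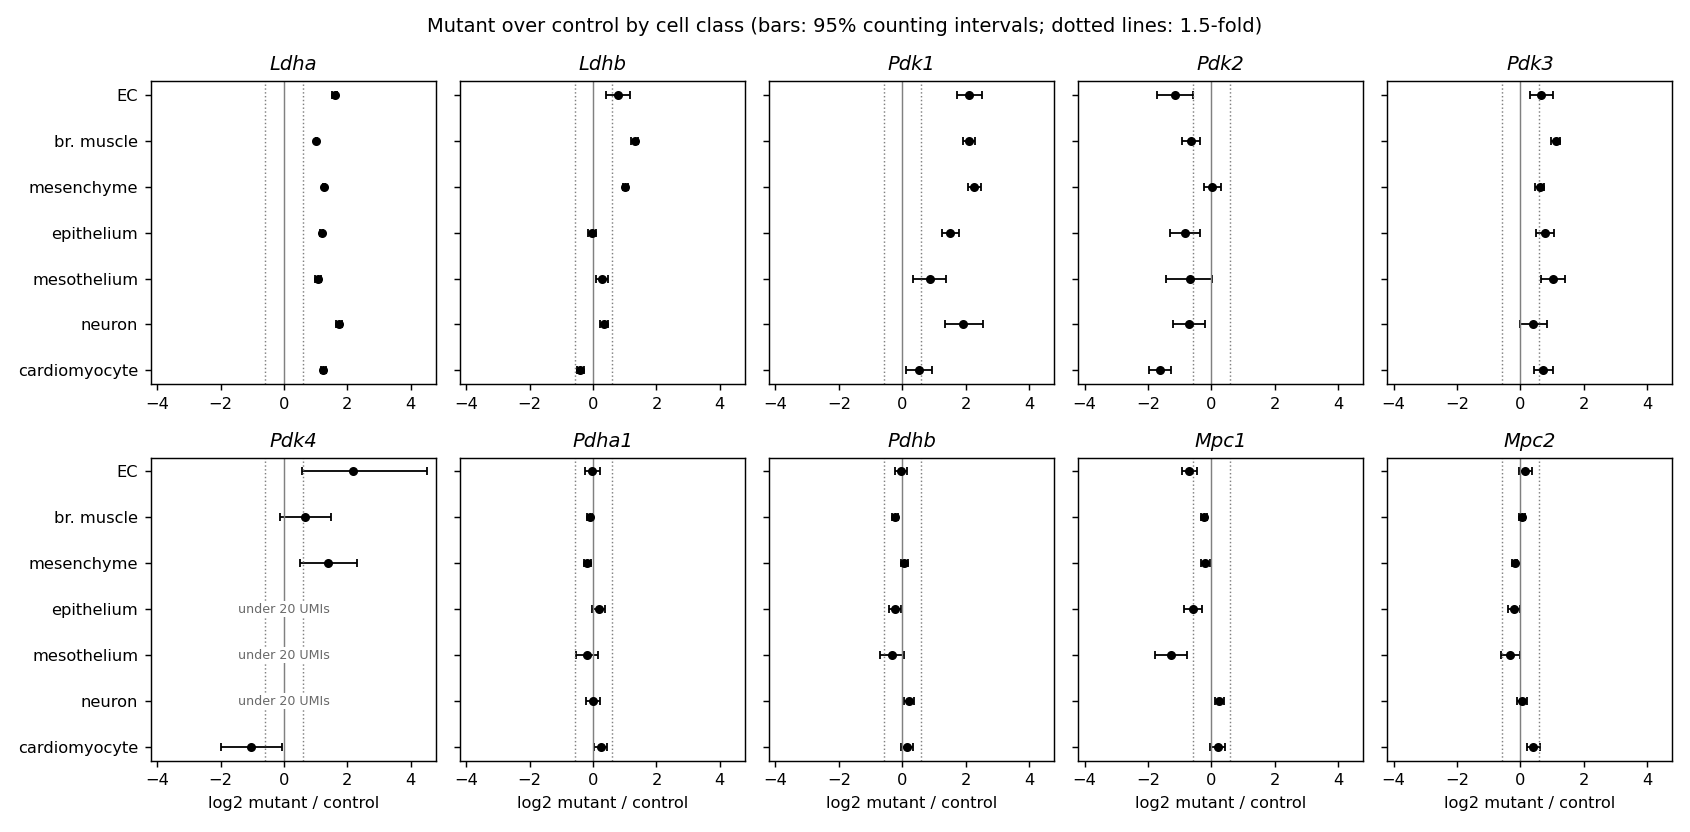
Log2 ratio of mutant over control for each gene and class with 95% counting intervals; the solid line marks 0 and the dotted lines 1.5-fold, and genes under 20 UMIs are written as such. Ldha lies beyond the right dotted line in 7 of 7 classes and Pdk1 in 6, while Pdha1 and Pdhb stay between the dotted lines.

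Counted by class, 5 members were past 1.5-fold higher and 2 lower in EC-like cells, of 10 with at least 20 UMIs. Among all 14166 genes measured in that class, 15.4% were past the fold upward and 14.6% downward, 30% in all, and the share of higher genes among those past the fold was 51.4%, or 61.3% with TMM scaling. Branchial muscle-like cells had 5 higher and 1 lower of 10 (16.7% and 10.1% of all genes, 26.8% together), and mesenchyme-like cells 5 higher and 0 lower of 10 (13.9% and 11% of all genes, 24.9% together). Epithelium-like cells had 3 higher and 1 lower of 9 (11.2% and 12.2%, 23.5% together), and mesothelium-like cells 3 higher and 2 lower of 9 (23.1% and 14.4%, 37.5% together). Neuron-like cells had 2 higher and 1 lower of 9 (7.97% and 18.6%, 26.5% together), and cardiomyocyte-like cells 2 higher and 2 lower of 10 (13.6% and 21.5%, 35.1% together). These counts use the ratio alone and not its interval. They include Pdk4 in branchial muscle-like and Pdk2 in mesothelium-like cells, whose intervals held 0. Pdk4 in EC-like cells, counted as higher, rested on 3 control UMIs. With TMM scaling the members counted 5 higher and 1 lower in EC-like, 4 and 0 in mesenchyme-like and 3 and 2 in cardiomyocyte-like cells, with the same counts in the other 4 classes. The median ratio of the members was 0.41 in EC-like cells against -0.06 over all genes, and -0.18 against 0.05 in mesothelium-like cells, where 5 of the 9 measured members (Mpc1, Pdk2, Mpc2, Pdhb and Pdha1) had ratios below 0.

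The rest of the pathway was read from a fixed list of 24 other genes of pyruvate supply and use, of which 18 could be measured in EC-like cells. Of these, 4 were past 1.5-fold higher and 2 lower. Among all genes of that class the shares were 15.4% and 14.6%, 30% together, so the list counted together was near that share. The highest ratio was that of Slc16a3, the lactate exporter MCT4, which went from 11.0 CPM (35 UMIs) to 220 CPM in EC-like cells, a ratio of 4.32 (3.84 to 4.85). It was higher in all 7 classes, from 0.51 (0.01 to 1.04) in cardiomyocyte-like to 4.32 in EC-like cells. Pkm, the pyruvate kinase that makes pyruvate, went from 710 to 1633 CPM in EC-like cells, a ratio of 1.20 (1.14 to 1.27), and Slc16a1, the transporter MCT1, from 7.53 to 12.0 CPM, a ratio of 0.68 (0.05 to 1.36). The largest ratios downward in EC-like cells were those of Slc16a7, -1.20 (-2.38 to 0.06), Gpt, -0.63 (-2.04 to 1.00), and Pcx, -0.39 (-1.17 to 0.45), all of low level and with intervals that held 0.

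Genes of the TCA cycle, which uses the acetyl-CoA that pyruvate dehydrogenase makes, stayed within 1.5-fold in most classes. In EC-like, branchial muscle-like, mesenchyme-like, epithelium-like and neuron-like cells, 0 of 17 were past the fold. Among all genes of these classes, 23.5% to 30% were. That share takes in every gene with at least 20 UMIs over both libraries and was not matched to the TCA cycle genes in level. The median of the TCA cycle genes in EC-like cells was -0.14, with a range of -0.45 to 0.23, beside -0.06 over all genes. Mesothelium-like cells had 7 lower and 0 higher of 17 (14.4% and 23.1% of all genes), with a median of -0.51 against 0.05 over all genes. Cardiomyocyte-like cells had 2 higher and 1 lower (13.6% and 21.5% of all genes), with a median of 0.34 against -0.05. In mesothelium-like and cardiomyocyte-like cells the members Mpc1, Mpc2, Pdha1 and Pdhb lay on the same side of 0 as the TCA cycle median. The interval held 0 for Pdha1 and Pdhb in mesothelium-like cells and for Mpc1 and Pdhb in cardiomyocyte-like cells.

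Because the mutant pool held male-like cells and the control pool hardly any, the ratios were formed again by sex-like call. Female-like mutant cells against female-like control cells gave Ldha ratios of 0.64 to 1.63 over the 7 classes, with 1.51 (1.44 to 1.59) in EC-like cells, so Ldha was higher in each class without male-like cells. Pdk1 in the same comparison gave 1.67 (1.24 to 2.13) in EC-like cells and 0.84 (0.50 to 1.18) in epithelium-like cells, and its interval held 0 in mesothelium-like and cardiomyocyte-like cells. Pdk3 gave 0.13 (-0.29 to 0.54) in epithelium-like and 0.44 (-0.38 to 1.28) in cardiomyocyte-like cells, both with intervals that held 0, and 0.33 (0.09 to 0.57) in mesenchyme-like cells. The cardiomyocyte-like values rested on 11 female-like control cells and 12 female-like mutant cells.

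Within the mutant library, male-like cells held more Pdk1 than female-like cells for 7 of 7 classes, with an interval above 0 in 5. The log2 ratio of male-like over female-like was 1.07 (0.79 to 1.37) in epithelium-like cells, 0.91 (0.64 to 1.19) in mesenchyme-like cells and 0.72 (0.52 to 0.93) in EC-like cells. For Ldha it was 0.17 (0.13 to 0.21) in EC-like cells, 0.69 (0.53 to 0.85) in mesothelium-like cells and -0.00 (-0.11 to 0.11) among cardiomyocyte-like cells. Pdk3 was also higher in male-like cells where its interval excluded 0, with 1.03 (0.65 to 1.42) in epithelium-like cells and 0.34 (0.05 to 0.63) in EC-like cells. Mpc1 was lower in male-like epithelium-like cells, at -0.71 (-1.17 to -0.26), and higher in male-like neuron-like cells, at 0.38 (0.20 to 0.56). Ldhb was higher in male-like cardiomyocyte-like cells, at 0.54 (0.29 to 0.81). Male-like and female-like cells also came from different embryos of the pool, so sex and embryo cannot be told apart.

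**Figure D5:**
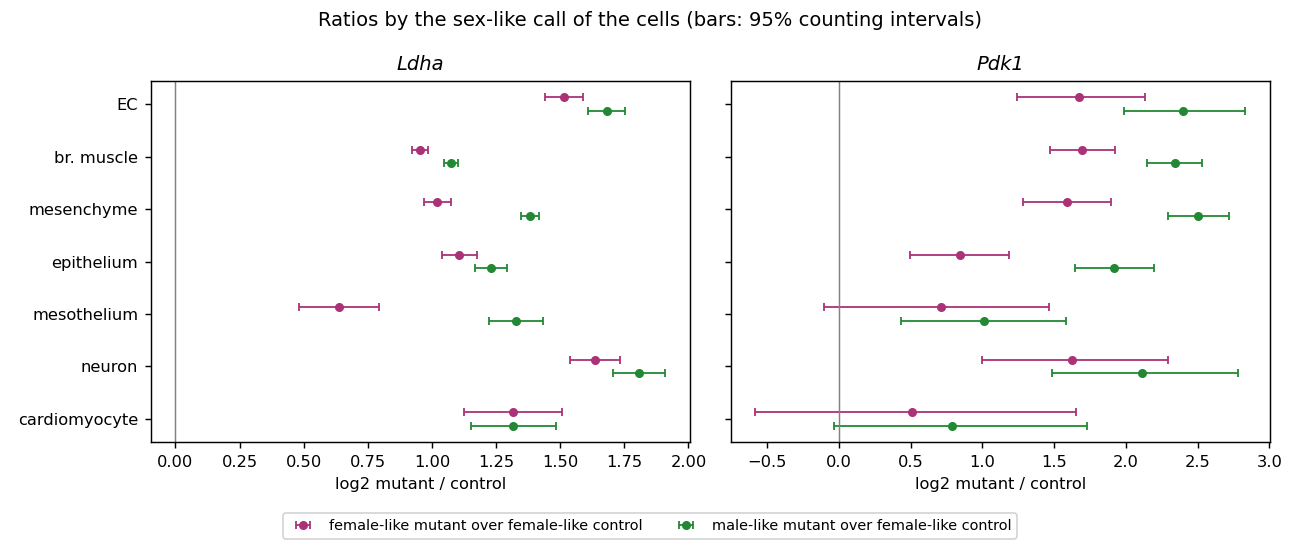
Log2 ratio of Ldha and Pdk1 in female-like and in male-like mutant cells over female-like control cells, by class, with 95% counting intervals; the grey line marks 0. The Pdk1 point of male-like cells lies to the right of that of female-like cells in all 7 classes, by 0.72 in EC-like cells.

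Other quantities also differed between the libraries in some of the classes. The sum of 12 dissociation stress genes was 1843 CPM in control and 3226 CPM in mutant EC-like cells, with 6 of 12 past 1.5-fold higher and 0 lower. Branchial muscle-like cells held 1525 and 2659 CPM, with 8 higher and 0 lower. Epithelium-like cells held 2756 and 4050 CPM, with 5 higher and 3 lower. The sum was 1603 and 1774 CPM in neuron-like cells (3 higher, 0 lower) and 2200 and 2577 CPM in cardiomyocyte-like cells (5 higher, 2 lower). It was 3615 and 3231 CPM in mesenchyme-like cells, with 4 higher and 3 lower, and 2826 and 1976 CPM in mesothelium-like cells, with 3 higher and 6 lower. The shares over all genes of each class are those given above. Summed hepatoblast markers were 37.0 and 43.3 CPM in EC-like cells and 0.980 and 35.3 CPM in branchial muscle-like cells. Erythroid markers were 65.3 and 67.4 CPM in EC-like cells and 17.0 and 51.7 CPM in mesenchyme-like cells, and macrophage markers 24.8 and 23.9 CPM in EC-like cells. The part of these in the members' ratios was not tested.

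Across the 14 sums of class and library, the genes whose log2 level was most like that of Ldha were Pgk1 and Pfkl of glycolysis (Pearson r of 0.96 each) and Fam162a (0.94), among 4091 genes. Pdk1 was most like Pfkl (0.97), Fam162a (0.96) and Grhpr (0.93). Ldhb was most like Lyrm2 (0.94), Ndrg2 (0.93) and Mea1 (0.91). Pdha1 was most like Ndufs7, Sdhc and Atp5a1 (0.98 each), genes of the respiratory chain and ATP synthase, and Mpc2 was most like Mtfr1l, Mrps36 (0.95 each) and Fxyd1 (0.94). Between members, r was 0.92 for Ldha with Pdk1 and for Pdha1 with Mpc2, 0.91 for Pdha1 with Pdhb, 0.33 for Ldha with Ldhb and -0.15 for Pdk1 with Mpc1. The 14 points share 2 libraries and cardiomyocyte-like cells are highest for most members, so these values are descriptions.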

How the data were processed

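Single cells were measured with the 10x Genomics 5′ assay. The authors processed the reads with Cell Ranger 7.1.0 against GRCm38 (mm10), and deposited unnormalized UMI counts per gene and barcode; whether intronic reads were counted is not given in the sources used here. The deposited tables were unfiltered for genes, mitochondrial share and doublets.

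The cell filter asked for over 2000 genes, under 9000 genes and under 10% mitochondrial UMIs. Libraries were integrated by canonical correlation anchors (Seurat 5.3.0, R 4.3.3; 2000 variable genes without 130 genes of the lists reported, 30 components, 20 neighbours, cell cycle regressed out) at the lowest resolution giving 15 clusters, 0.25. UMIs were summed per class and library. Intervals (95%) are Clopper-Pearson for shares, exact Poisson for CPM and conditional binomial for ratios; 20 UMIs over both libraries were asked for a ratio, and past-fold means 1.5-fold. Intervals were tested on simulated Poisson counts without variation between cells or embryos, so that test does not cover such variation. Cells with Xist but no UMI of 4 Y-linked genes were called female-like, and the reverse male-like. Phases used 43 S and 54 G2/M genes. Scrublet (scanpy 1.11.5) called 0 and 1 doublets, so doublets were kept and the highest scores removed only as an alternative. Coordinates are GENCODE GRCm38, promoters RefSeq GRCm38.p6, and transcript matches came from BLAST 2.17.0.

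Genes named are the 10 members, the 3 largest ratios in each direction in EC-like cells among the 24 other pyruvate genes (Mpc1l was not matched), and for 5 members the 3 most alike by Pearson r, provided that 1 sum or more reached 100 CPM. The members, lists and rules were chosen with earlier results of these data known. Alternatives were TMM scaling (edgeR 4.0.16), median-ratio scaling (genes of at least 50 UMIs), no integration, resolution 0.8, marker scores, doublet removal, sex-like and G1 cells, the mean over cells, thinning to 5000 UMIs, mitochondrial limits of 5%, 1000 genes with no upper limit, and a minimum of 100 UMIs for the count of members; 1 more, the larger mesenchyme-like cluster alone, was chosen after seeing the data. Scripts ran under Python 3.11.15 with scipy 1.17.1 for intervals, matplotlib 3.10.9 for figures, and numpy 2.4.6 and pandas 2.3.3.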

Additional observations from a re-analysis of the deposited data

Results flagged for a closer look

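Ratios of several members lay on opposite sides of 0 in different classes with counting intervals that excluded 0. Ldhb was at 1.32 on the log2 scale in branchial muscle-like and -0.40 in cardiomyocyte-like cells, Pdk4 at 2.19 in EC-like and -1.05 in cardiomyocyte-like cells, and Mpc1 at 0.25 in neuron-like and -1.26 in mesothelium-like cells. Smaller opposite values were those of Pdha1, 0.24 in cardiomyocyte-like and -0.18 in mesenchyme-like cells, of Pdhb, 0.22 in neuron-like and -0.24 in epithelium-like cells, and of Mpc2, 0.41 in cardiomyocyte-like and -0.31 in mesothelium-like cells. With 1 library per genotype, these differences between classes were not tested.

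The barcodes that the filter removed, 1722 control and 1868 mutant, form data outside the comparisons above. Their summed UMIs gave a log2 ratio of 1.33 (1.26 to 1.40) for Ldha and 2.01 (1.65 to 2.39) for Pdk1, of the same direction as in the cells kept.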

How the results depend on the processing

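In EC-like cells, Ldha (1.59 on the log2 scale) gave 1.71 with TMM scaling, 1.70 with median-ratio scaling, 1.53 in classes from marker scores, 1.51 in female-like cells, 1.72 in G1 cells and 1.67 in thinned cells. Pdk1 (2.11) gave 1.67 in female-like cells, 2.75 in G1 cells and 2.92 in thinned cells, the last on 8 control UMIs. Ldhb (0.78) gave 0.39 as the mean over cells and 0.41 in thinned cells, and Pdk3 (0.65) gave 0.22 in thinned cells. The difference in the Ldha share (1.47 points) became 2.93 in G1 cells and 2.82 in thinned cells, and the count of members past 1.5-fold (7) became 4 in thinned cells. Thinning leaves fewer UMIs by construction, and the cause of the other changes was not tested. Among ratios whose interval excluded 0, directions turned for Pdk4 in female-like EC-like cells (-0.70), Pdhb in thinned epithelium-like cells (0.13), Pdk2 in thinned neuron-like cells (0.030) and Pdha1 in cardiomyocyte-like cells, both female-like (-0.16) and thinned (-0.0068). Ratios whose interval held 0 also changed sign, such as Pdha1 in EC-like cells (-0.24 to 0.13 over the alternatives). TMM scaling shifted all ratios by 0.11 in EC-like, 0.12 in neuron-like, 0.15 in cardiomyocyte-like and -0.12 in mesothelium-like cells, and median-ratio scaling by 0.10 in EC-like cells. With TMM, the share of higher genes among all genes past 1.5-fold went from 61.6% to 48.9% in mesothelium-like, from 30.0% to 41.4% in neuron-like, from 38.8% to 53.7% in cardiomyocyte-like, from 51.4% to 61.3% in EC-like and from 47.8% to 54.9% in epithelium-like cells. The ratios of Pdha1 and Pdhb in EC-like cells, whose intervals hold 0, lie within that shift. With the larger mesenchyme-like cluster alone, an alternative added after the data were seen, Ldha gave 1.75 and not 1.26. No paired analysis was possible because each genotype had 1 library, and no replicate could be left out for the same reason. Depth limits Pdk2 and Pdk4 above all, with 42 and 3 control UMIs in EC-like cells.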

Other observations

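At resolution 0.8, EC-like cells formed 3 clusters, which also took in cells outside the EC-like class used above. The largest, with 104 control and 520 mutant cells, had a log2 ratio of 1.60 (1.53 to 1.67) for Ldha and 2.12 (1.69 to 2.59) for Pdk1. The second, with 37 and 149 cells, had 1.18 (1.02 to 1.35) and 0.93 (0.06 to 1.93). It held more Ldhb than the first, 98.5 and 107 CPM against 17.5 and 36.9 CPM. These were 66 and 305 UMIs in the second and 45 and 423 in the first. The whole EC-like class used above held only 70 and 526. Part of the Ldhb of these clusters thus lay in cells outside that class, and how much in the second was not tested. The third, with 19 and 89 cells, had 2.01 (1.59 to 2.45) for Ldha and 4.32 (2.44 to 7.38) for Pdk1, the latter on 2 control UMIs and 152 mutant UMIs, and its mutant level of 177 CPM for Pdk1 was above that of the other EC-like clusters, 75.9 and 34.1 CPM. The third also stood apart in depth, with a median of 8388 UMIs per cell against 19777.5 and 16532, and in its leading genes (Tll1, Ptprm and Ldb2). Their part in its Pdk1 level was not tested.

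In branchial muscle-like cells, the smaller cluster (191 control and 131 mutant cells) had higher ratios than the larger for Ldhb, 2.20 (1.74 to 2.69) against 1.24 (1.13 to 1.35), and for Pdk3, 2.10 (1.60 to 2.63) against 0.99 (0.83 to 1.15), while Pdk1 had 2.17 (1.74 to 2.62) and 2.10 (1.90 to 2.30). In neuron-like cells, the larger cluster had an Ldhb ratio of -0.01 (-0.15 to 0.13) and the next 0.48 (0.23 to 0.72). These differences between clusters were not tested.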
